A study of Mus musculus with 16 samples.

Results

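The genes described here encode 7 phosphodiesterases that hydrolyse cyclic AMP (cAMP): Pde2a, Pde3b, Pde4a, Pde4b, Pde4d, Pde7a and Pde8a. They were picked by name, with earlier results of these data known, from a table of read counts for 54532 genes. The RNA came from naive CD8+ T cells of C57BL/6J mouse spleens that were differentiated in vitro for 4 days, with repeated activation, into antigen-experienced TCF1+CD8+ T cells. TCF1 is the transcription factor of stem-like T cells. All cells received IL-2 at 85 U per ml for 4 h. The unstimulated untreated group had IL-2 alone, and the unstimulated PGE2-treated group had 100 ng per ml of PGE2 for 1 h before IL-2. The stimulated untreated group had IL-2 with beads carrying antibodies to CD3 and CD28, at 1 bead per cell, and the stimulated PGE2-treated group had PGE2 followed by IL-2 and beads. Each group had 4 replicates. The labels do not say whether these were separate mice or separate cultures, so the p-values measure only the spread between these samples, which may be technical. The cells were made in culture and were not taken from tumours.

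cAMP is produced by adenylyl cyclases after ligands such as PGE2 engage receptors coupled to Gs, among them EP2 and EP4. It acts through protein kinase A (PKA), which phosphorylates the transcription factors CREB and CREM, and through the exchange factors EPAC1 and EPAC2. Phosphodiesterases end the signal by converting cAMP to AMP, and PDE4 enzymes are recruited to the activated T cell receptor complex together with beta-arrestin. The PDE4, PDE7 and PDE8 families act on cAMP only. PDE3B is inhibited by cyclic GMP (cGMP), and PDE2A, which degrades both nucleotides, is activated by it.

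Libraries held 22678254 to 42950763 counts. The transcripts of the labelled cell type were present throughout, with 5 CD8 T cell markers (Cd8a, Cd8b1, Cd3d, Cd3e and Trac) summing to 2117 to 3008 CPM (counts scaled to library size and composition by TMM factors) in each sample. Markers of other cells summed to at most 9.52 CPM for CD4 T cells, 5.37 for B cells, 0.507 for myeloid cells and 0.820 for erythroid cells. The NK cell list summed to 5.54 to 178 CPM, nearly all from Eomes, which CD8 T cells also express (12.3 to 24.1 in unstimulated untreated, 5.54 to 10.9 in unstimulated PGE2-treated, 112 to 178 in stimulated untreated and 36.5 to 128 in stimulated PGE2-treated samples), and its defining marker Ncr1 had 0 counts in all 16 libraries. Of the CD8 T cell markers, Cd8a and Cd8b1 were lower with PGE2 in both states, by 0.25 to 0.44 on the log2 scale, and the other 3 were not changed. Their part in the phosphodiesterase results was not tested. In bulk samples, fewer cells expressing a gene and less RNA per cell cannot be told apart.

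The 7 genes are spread over 5 chromosomes of the GRCm38 build, and each count covers all exons of a gene. Pde4d, at chr13:108449948-109953461, spans 1504 kb and has 20 annotated transcripts in GENCODE M21, each with its own start. Pde4b (chr4:102087543-102607259) spans 520 kb with 13 transcripts. The other genes span 47.5 to 124 kb: Pde3b at chr7:114415281-114539251, Pde8a at chr7:81213596-81334533, Pde2a at chr7:101421691-101512827, Pde4a at chr9:21165714-21213248 and Pde7a, on the minus strand, at chr3:19223108-19311322. Pde2a shares 64.3% of its exon bases with Gm45837 on the same strand, so reads there cannot be assigned to a single gene and may have gone uncounted, in which case its counts and FPKM are too low in all groups. Pde7a shares 48 bases with an antisense gene at 0.0534 CPM, and the other 5 genes share no exon base with another gene.

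The promoter windows of 3 genes are printed because Pde4b, Pde4d and Pde8a were the genes that rose with PGE2 in both unstimulated and stimulated cells. CREB family factors bind the cAMP response element, TGACGTCA, or its core TGACG. RefSeq promoter windows (GRCm38.p6, 250 bases before to 50 after a start) were held for 5 of the 7 genes, in 14 windows, with none for Pde3b and Pde7a. The 250 bases before the start are given 5′ to 3′, all from the plus strand, with the core or its reverse complement CGTCA in capitals:
Pde4b, chr4:102421305-102421554: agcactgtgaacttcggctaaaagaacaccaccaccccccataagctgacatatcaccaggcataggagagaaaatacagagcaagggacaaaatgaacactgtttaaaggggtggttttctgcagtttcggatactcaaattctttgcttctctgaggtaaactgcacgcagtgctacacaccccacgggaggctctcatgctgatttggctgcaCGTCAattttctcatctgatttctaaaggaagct
Pde8a, chr7:81213015-81213264: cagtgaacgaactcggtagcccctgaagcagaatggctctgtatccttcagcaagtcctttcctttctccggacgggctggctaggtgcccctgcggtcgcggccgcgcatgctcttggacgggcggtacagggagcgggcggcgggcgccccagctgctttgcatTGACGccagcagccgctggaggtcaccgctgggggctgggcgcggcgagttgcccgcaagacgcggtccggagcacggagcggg
Pde4d, chr13:108653927-108654176: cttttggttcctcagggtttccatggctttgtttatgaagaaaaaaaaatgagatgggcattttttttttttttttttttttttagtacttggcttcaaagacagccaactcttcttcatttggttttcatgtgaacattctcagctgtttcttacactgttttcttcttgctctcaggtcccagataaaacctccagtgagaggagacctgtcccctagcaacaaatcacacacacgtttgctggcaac
The Pde4b window is the only 1 of 4 for that gene with a match, which begins 34 bases before the start. In Pde8a the match begins 84 bases before it. The Pde4d window has none, but it is the only window held for a gene with 20 annotated starts. The core was found in 4 of the 14 windows (28.6%), the other 2 being a Pde4a window and a Pde2a window, against 20.8% of all 32817 windows searched on both strands. The whole element, which includes the core, was in none of the 14 and in 1.79% of all windows, and the AP-1 motifs TGAGTCA and TGACTCA were in none of the 14 and in 5.20% of all. A match is a description of letters and not a bound site, and gene counts do not show which start was in use.

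Levels of different genes were compared on the deposited FPKM, which are per length of all merged exons of a gene. That length is 12006 bases for Pde4d with its 20 transcripts and 7748 for Pde7a with 10. Where a cell uses only some of the exons, the FPKM of such a gene read too low. Ranks, sums and shares of FPKM carry this limit. Pde3b was the highest of the 7 genes in every sample, between 15.5 and 57.4 FPKM. Over the 16 samples it averaged 31.7 FPKM, followed by Pde7a at 11.0, Pde4d at 8.85, Pde4b at 5.38, Pde8a at 2.97, Pde4a at 0.355 and Pde2a at 0.0310. Pde7a stood above Pde4d in every group, by margins that differed. In unstimulated PGE2-treated cells they averaged 15.1 ± 1.69 and 14.3 ± 2.04 FPKM (SD, n = 4), which is less than their spread apart, and in stimulated untreated cells 7.82 ± 0.217 and 3.63 ± 0.629.

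The summed level of the 7 genes was 75.5 ± 8.10 FPKM in unstimulated untreated cells, 88.9 ± 13.8 in unstimulated PGE2-treated cells, 32.2 ± 1.26 in stimulated untreated cells and 44.6 ± 2.73 in stimulated PGE2-treated cells (SD, n = 4). Stimulated samples did not reach the unstimulated ones, whose lowest sum was 67.8 FPKM against 47.5 for the highest stimulated sample. The 3 PDE4 genes among the 7 (Pde4a, Pde4b and Pde4d) together held 21.4 ± 0.781% of the sum in unstimulated untreated cells and 25.7 ± 0.821% with PGE2. In stimulated cells they held 20.3 ± 2.41% without PGE2 and 29.0 ± 0.785% with it. The remaining PDE4 gene, Pde4c, is in neither the sum nor this share. It averaged 0.547 FPKM without and 0.269 FPKM with PGE2 in unstimulated cells. In both states every PGE2-treated sample had a larger PDE4 share than every untreated one, while the share of Pde3b went from 58.6 ± 1.51% to 51.9 ± 0.936% in unstimulated and from 50.4 ± 2.22% to 45.3 ± 1.45% in stimulated cells.

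**Figure D1:**
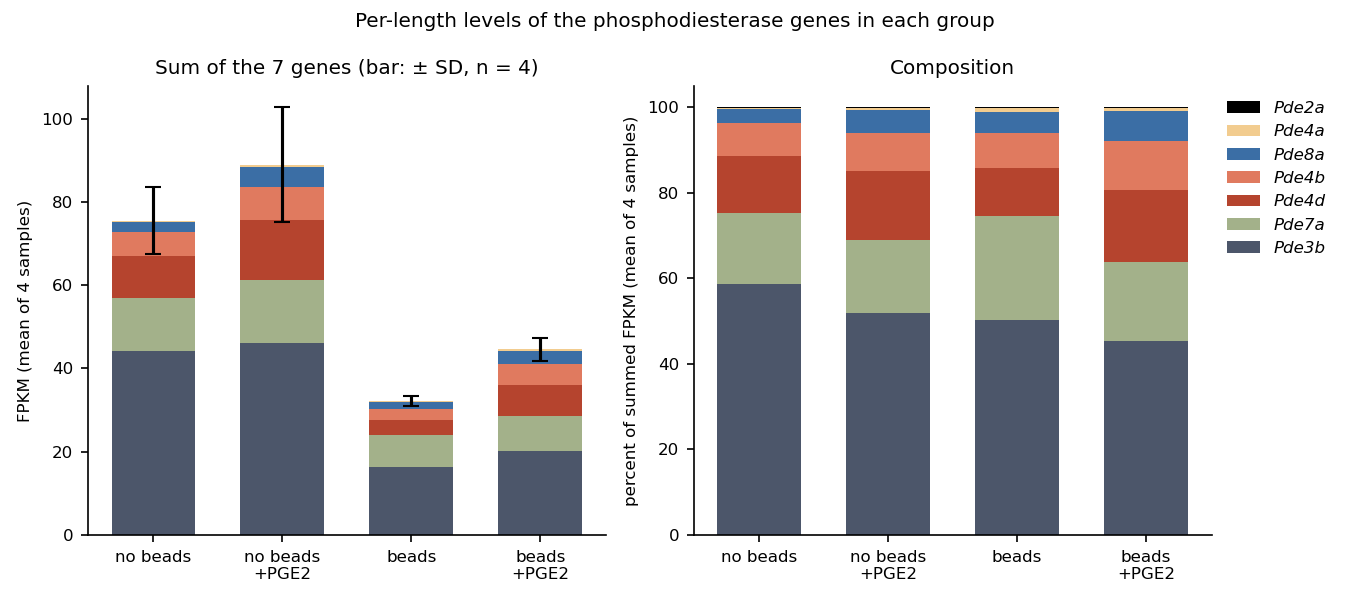
Left, mean FPKM of each of the 7 genes stacked by group (4 samples each), with the bar showing the SD of the sum. Right, the mean share of each gene in that sum, in percent. The stack of the stimulated groups is lower, 32.2 and 44.6 against 75.5 and 88.9 FPKM, and the Pde4d and Pde4b segments are wider in both PGE2-treated groups.

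PGE2 raised a common core of 3 of these genes, Pde4b, Pde4d and Pde8a, whether or not the cells were stimulated. In stimulated cells 4 of the 6 genes tested were changed (adjusted p below 0.05 in edgeR's quasi-likelihood test), all of them higher. That compares with 6.04% of 13922 genes changed towards higher and 3.8% towards lower in the same comparison. The groups did not overlap for those 4 genes, against 17.9% of all genes, and 1 of the 6 was a DEG, which also requires a fold change of at least 2, against 1.75% of all. In unstimulated cells 4 of the 7 genes were changed, again all higher, where 12.9% of 14505 genes were changed towards higher and 15.5% towards lower. Groups did not overlap for 3 of the 7, against 28.8% of all genes, and 1 was a DEG, against 3.38%. Since the 7 genes were chosen with earlier results of these data known, these counts cannot test an excess over all genes. The shares over all genes, here and for stimulation below, are given for scale only. The median log2 fold change was 0.64 over the 6 genes in stimulated and 0.52 over the 7 in unstimulated cells, beside -0.0061 and -0.0010 over all genes tested. The 7 include Pde2a, which passed the filter on low counts mainly through the PGE2-treated group, where it was higher. Its 0.91 in unstimulated cells, not called changed, raises that median. Same-numbered replicates of the compared groups deviated together, and with the replicate number as a block 39.8% of all genes were changed in stimulated and 47.8% in unstimulated cells, with 4 of 6 and 5 of 7 of these genes among them.

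**Figure D2:**
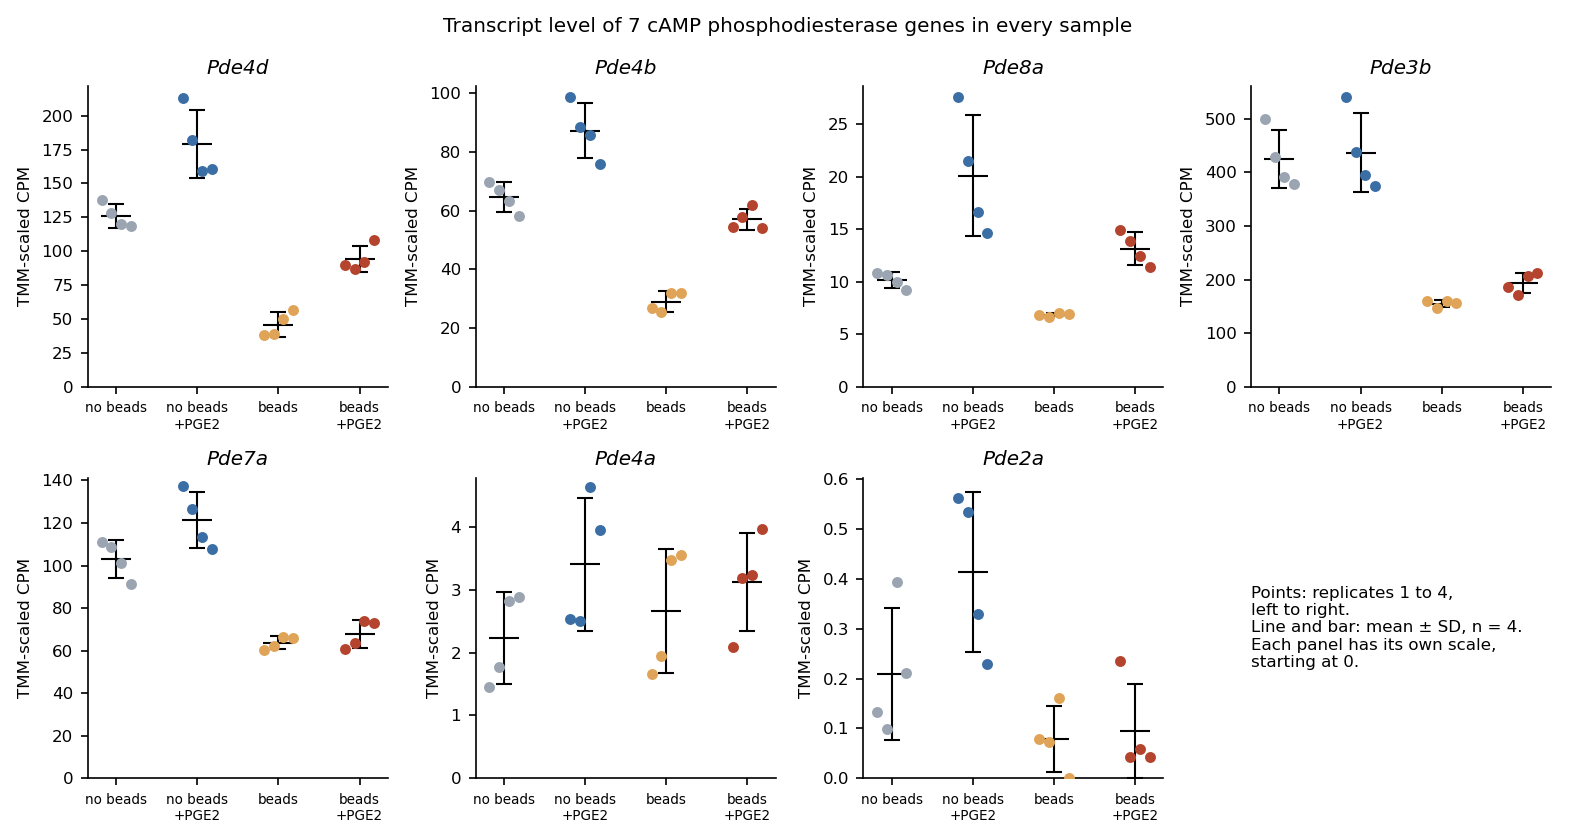
TMM-scaled CPM of each gene (vertical axis, own scale per panel, from 0) in the 4 groups, with points for replicates 1 to 4 and a line and bar for mean ± SD. For Pde4d, Pde4b and Pde8a the PGE2-treated points lie above the untreated points of the same stimulation state. For Pde4a and Pde2a, at most 4.63 and 0.562 CPM, the groups overlap in both PGE2 comparisons.

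Pde4d, a cAMP-specific enzyme with many isoforms that differ in their anchoring, was among the 3 genes that were higher with PGE2 in both states. Its levels in unstimulated untreated replicates 1 to 4 were 138, 128, 120 and 119 CPM, and in the PGE2-treated ones 213, 182, 159 and 161 CPM. All 4 treated samples exceeded all 4 untreated ones, with a log2 fold change of 0.52 (SE 0.0842, adjusted p = 0.00083). In stimulated cells the untreated replicates had 38.3, 38.9, 50.1 and 56.6 CPM and the PGE2-treated ones 89.6, 86.7, 91.8 and 108 CPM. Here too the lowest treated sample stood above the highest untreated one, and the log2 fold change was 1.04 (SE 0.134, adjusted p = 0.0015). In same-numbered replicates the rise was 1.83 to 2.34-fold in stimulated and 1.33 to 1.54-fold in unstimulated cells.

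Pde4b encodes a PDE4 enzyme that is prominent in leukocytes. It measured 69.9, 67.1, 63.2 and 58.3 CPM in unstimulated untreated replicates 1 to 4 and 98.8, 88.4, 85.9 and 75.8 CPM with PGE2. The groups did not overlap, and the log2 fold change was 0.45 (SE 0.0778, adjusted p = 0.0012). Stimulated untreated replicates had 26.7, 25.4, 32.0 and 31.9 CPM and PGE2-treated ones 54.3, 57.8, 61.9 and 54.1 CPM. The lowest treated sample was above the highest untreated one. The log2 fold change was 0.98 (SE 0.0955, adjusted p = 0.00035), just under the fold change that defines a DEG.

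Pde8a encodes an enzyme with a high affinity for cAMP that resists the general inhibitor IBMX. The unstimulated untreated replicates had 10.8, 10.6, 9.96 and 9.18 CPM and the PGE2-treated ones 27.6, 21.5, 16.7 and 14.7 CPM. The treated samples were all higher but far apart, with an SD of 5.77 against 0.748 CPM, and the log2 fold change was 1.00 (SE 0.164, adjusted p = 0.00091). In stimulated cells the untreated replicates lay close together at 6.80, 6.68, 7.06 and 6.97 CPM and the treated ones at 14.9, 13.9, 12.4 and 11.4 CPM. Again no treated sample reached down to the untreated range, and the log2 fold change was 0.95 (SE 0.110, adjusted p = 0.00082). The counts behind these values were 165 to 786 per sample.

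The folds of Pde4d, Pde4b and Pde8a in stimulated cells, and that of Pde8a in unstimulated cells, lie close to 2. The number of DEGs therefore moved with single libraries. In stimulated cells it was 0 without untreated replicate 1 or 2, 2 without untreated replicate 3 or 4 or PGE2-treated replicate 1 or 4, and 1 without either of the others. Without PGE2-treated replicate 4 the DEGs were Pde4b and Pde8a, with Pde4d at 0.97. In unstimulated cells Pde8a was no DEG without untreated replicate 3 or 4 or PGE2-treated replicate 1 or 2 (log2 fold changes of 1.00, 0.95, 0.83 and 0.98, the first being 0.996), nor with the replicate block (0.96). The 3 genes remained changed in both comparisons under all 17 alternatives run for each.

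Pde3b, the most abundant of the 7, differed little between PGE2-treated and untreated cells. Its unstimulated untreated replicates had 499, 429, 391 and 379 CPM and the PGE2-treated ones 542, 438, 394 and 375 CPM. The ranges coincided, and the log2 fold change of 0.061 (SE 0.111) had an adjusted p of 0.73. In stimulated cells the values were 159, 147, 159 and 156 CPM without and 187, 172, 206 and 213 CPM with PGE2. These did not overlap, and the log2 fold change was 0.33 (SE 0.0770, adjusted p = 0.026). That call was lost without untreated replicate 1 (adjusted p = 0.053), 2 (0.091) or 3 (0.058) or without PGE2-treated replicate 3 (0.086) or 4 (0.061), while with the replicate block the adjusted p was 0.00044. Over its 17 alternatives the adjusted p ran from 0.00044 to 0.091.

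Pde7a encodes a cAMP-specific enzyme that, unlike the PDE4 enzymes, resists the inhibitor rolipram. Untreated and PGE2-treated unstimulated replicates had 111, 109, 101 and 91.4 CPM and 138, 127, 114 and 108 CPM. The groups overlapped between 108 and 111 CPM, but each treated replicate exceeded its same-numbered partner, by 1.12 to 1.24-fold. The log2 fold change was 0.26 (SE 0.0798, adjusted p = 0.033). The adjusted p rose to 0.074 without untreated replicate 3, 0.084 without untreated replicate 4, 0.078 without PGE2-treated replicate 1 and 0.091 without PGE2-treated replicate 2, and fell to 1.6e-05 with the replicate block. Over its 17 alternatives it ran from 1.6e-05 to 0.16. In stimulated cells the values of 60.2, 62.0, 66.5 and 66.0 CPM without and 60.9, 63.4, 74.0 and 73.0 CPM with PGE2 overlapped, and the log2 fold change of 0.097 (SE 0.0808) had an adjusted p of 0.45.

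Pde4a, the PDE4 gene with the lowest level here, had 33 to 168 counts per sample. In unstimulated cells it measured 1.45, 1.76, 2.81 and 2.89 CPM without and 2.53, 2.50, 4.63 and 3.94 CPM with PGE2. Replicates 1 and 2 were below replicates 3 and 4 in each of these groups, so that the groups overlapped although the treated replicate was higher in 4 of 4 same-numbered pairs. The log2 fold change was 0.62 (SE 0.278) with an adjusted p of 0.12, and 0.63 (SE 0.143) with an adjusted p of 0.0016 when the replicate number was a block. The adjusted p ran from 0.0016 to 0.33 over its 15 alternatives. Stimulated replicates had 1.67, 1.94, 3.47 and 3.55 CPM without and 2.08, 3.18, 3.24 and 3.97 CPM with PGE2, with a log2 fold change of 0.25 (SE 0.292, adjusted p = 0.61).

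Pde2a was near the limit of detection, with 0 to 19 counts per library. Unstimulated untreated replicates 1 to 4 had 3, 3, 14 and 7 counts and PGE2-treated ones 16, 19, 12 and 9 counts. These samples overlapped, and the log2 fold change of 0.91 (SE 0.466) had an adjusted p of 0.18. Pde2a passed the filter on low counts here mainly through the PGE2-treated group, where it was higher. It is thus among the 7 genes tested in unstimulated cells. Stimulated untreated replicates had 3, 2, 4 and 0 counts and PGE2-treated ones 7, 1, 2 and 1, too few to pass the filter on low counts. The count of 0 allows a level of up to 0.127 CPM (3 counts) and covers counting error only.

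Stimulation with beads lowered the phosphodiesterase transcripts. Without PGE2, 5 of the 6 genes tested were changed, all lower, in a comparison where 34.8% of 14205 genes were changed towards lower and 31.7% towards higher. The groups did not overlap for these 5, against 61.6% of all genes, and 3 of the 6 were DEGs, against 23.2%. Pde4d fell by 1.48 on the log2 scale (SE 0.111, adjusted p = 1.9e-07), Pde3b fell by 1.46 (SE 0.0877, adjusted p = 4.1e-08) and Pde4b fell by 1.17 (SE 0.0889, adjusted p = 2.0e-07). These amount to levels 2.78, 2.75 and 2.25-fold lower than in unstimulated cells. Pde7a fell by 0.71 (SE 0.0729, adjusted p = 2.6e-06) and Pde8a fell by 0.57 (SE 0.104, adjusted p = 0.00032). Pde4a had a log2 fold change of 0.20 (SE 0.294, adjusted p = 0.57) and was higher in 4 of 4 same-numbered pairs.

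In the presence of PGE2 the same 5 genes were lower after stimulation, with 31.7% of 14507 genes changed towards lower and 32.5% towards higher. For 4 of the 6 tested the groups did not overlap, against 60.2% of all genes, and 1 was a DEG, against 22.1%. Pde3b fell by 1.15 (SE 0.110, adjusted p = 7.2e-06), Pde4d fell by 0.91 (SE 0.0979, adjusted p = 1.6e-05), Pde7a fell by 0.83 (SE 0.0888, adjusted p = 1.6e-05), Pde4b fell by 0.60 (SE 0.0846, adjusted p = 0.00011) and Pde8a fell by 0.59 (SE 0.179, adjusted p = 0.014). Pde4a differed by -0.13 (SE 0.255, adjusted p = 0.68). Pde2a, which the filter left out, had a log2 fold change of -2.04 (SE 0.587, adjusted p = 0.0079) without that filter, on 9 to 19 counts against 1 to 7. When any 1 PGE2-treated stimulated replicate or the unstimulated PGE2-treated replicate 4 was left out, the filter admitted Pde2a through the unstimulated group, where it was higher, and the number of DEGs became 2. Without unstimulated PGE2-treated replicate 3 it was Pde4d that made the second, at -1.01. The summed level of 4 markers of the TCF1+ state (Tcf7, Slamf6, Il7r and Ccr7) had the same order of groups as the summed FPKM of the 7 genes. It was 2254 to 2825 CPM in unstimulated untreated, 2867 to 3526 in unstimulated PGE2-treated, 771 to 1015 in stimulated untreated and 1506 to 2148 in stimulated PGE2-treated samples. Pde8a and Pde4a did not have this order, their means being higher in stimulated PGE2-treated than in unstimulated untreated cells. PGE2 raised 3 of the 4 in stimulated cells, all but Slamf6 (log2 fold change 0.091, adjusted p = 0.61). In unstimulated cells it raised 3 of the 4, all but Tcf7 (0.032, adjusted p = 0.91). There Tcf7 averaged 1174 CPM without and 1186 CPM with PGE2, and Ccr7 1082 and 1651 CPM. Stimulation lowered all 4 markers with and without PGE2, none of them being at 0. The part of these markers in the phosphodiesterase differences was not tested.

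**Figure D3:**
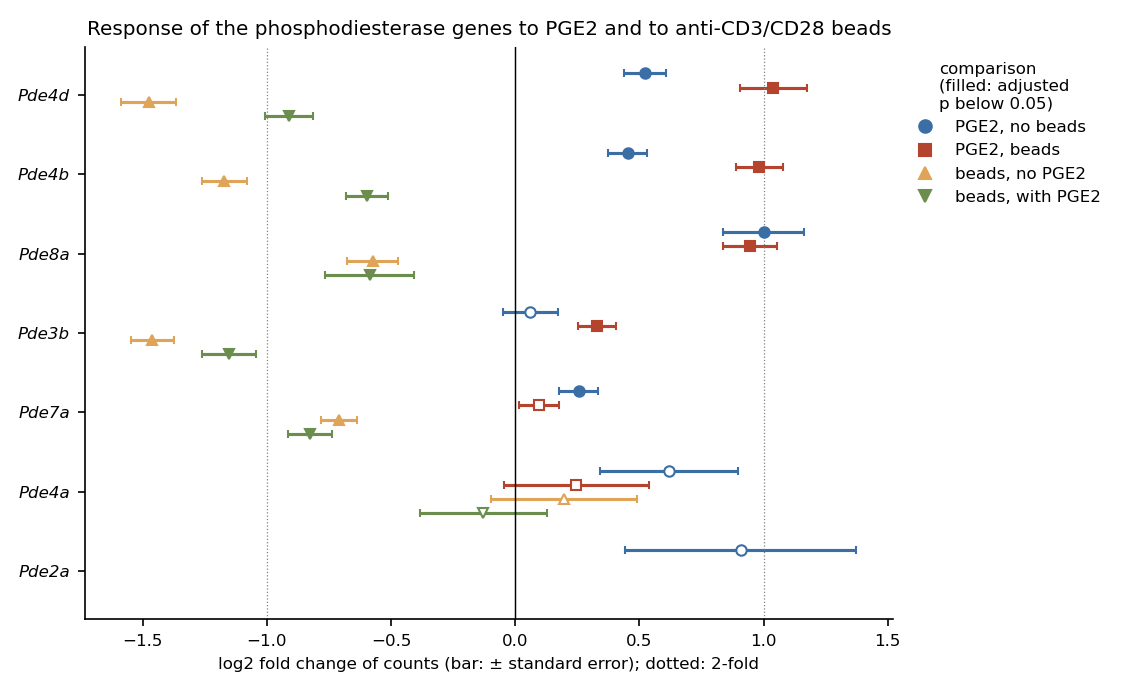
Log2 fold change of counts with its standard error for each gene in 4 comparisons, filled where the adjusted p is below 0.05, with dotted lines at a 2-fold change. The PGE2 values of Pde4d, Pde4b and Pde8a lie right of 0 (0.45 to 1.04) and the bead values of all genes other than Pde4a lie left of it (-0.57 to -1.48). Pde2a was tested in 1 of the comparisons.

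A further pair of comparisons placed the 4 groups in order. Between PGE2-treated stimulated cells and untreated unstimulated cells 58.4% of 14326 genes were changed, as were 4 of the 6 tested here. Between PGE2 alone and beads alone 71.5% of 14451 genes were changed, as were 5 of the 6, all higher with PGE2 alone. Pde4d ran from 179 ± 25.1 CPM in unstimulated PGE2-treated to 126 ± 8.97 in unstimulated untreated, 94.0 ± 9.52 in stimulated PGE2-treated and 46.0 ± 8.90 in stimulated untreated cells (SD, n = 4), and each neighbour differed, the middle pair by -0.44 (SE 0.0854, adjusted p = 0.0010). Pde4b had the same order at 87.2 ± 9.43, 64.6 ± 5.01, 57.0 ± 3.66 and 29.0 ± 3.46 CPM, but its middle pair did not pass (-0.20, SE 0.0785, adjusted p = 0.051).

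Pde8a had another order. Stimulated PGE2-treated cells, at 13.2 ± 1.55 CPM, stood above unstimulated untreated cells at 10.2 ± 0.748 (log2 fold change 0.36, SE 0.114, adjusted p = 0.018), with 20.1 ± 5.77 CPM in unstimulated PGE2-treated cells at the top and 6.88 ± 0.171 in stimulated untreated cells at the bottom. Pde3b fell into an upper pair at 437 ± 74.5 and 424 ± 54.1 CPM that did not differ and a lower pair at 194 ± 18.7 and 155 ± 5.66. Between these pairs the difference was -1.14 (SE 0.102, adjusted p = 7.9e-06). For Pde7a it was the lower pair, at 67.8 ± 6.61 and 63.7 ± 3.07 CPM, that did not pass, below 103 ± 8.83 and 121 ± 13.3. Pde4a ranged from 2.23 ± 0.729 to 3.40 ± 1.06 CPM, and no comparison of 2 groups passed for it without the replicate block.

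The interaction asks whether the PGE2 effect differed between stimulated and unstimulated cells, and 0 of the 7 genes passed in edgeR's test. Over all 15096 genes 0.517% were changed towards a higher and 0.232% towards a lower effect in stimulated cells. At an unadjusted p below 0.05 there were 2 of the 7, against 9.37% of all genes. Pde4b came closest, with an effect 0.54 larger in stimulated cells on the log2 scale (SE 0.132, adjusted p = 0.068), followed by Pde4d with 0.53 (SE 0.171, adjusted p = 0.23) and Pde3b with 0.28 (SE 0.153, adjusted p = 0.65). The call for Pde4b depended on the fit: DESeq2 called it, as 1 of the 7, with an adjusted p of 0.011, and without unstimulated PGE2-treated replicate 1 edgeR gave 0.60 with an adjusted p of 0.046. The range over 24 alternatives was 0.011 to 0.35. Pde8a differed by -0.047 (SE 0.218, adjusted p = 0.99), with 1.00 in unstimulated and 0.95 in stimulated cells. Values for Pde7a and Pde4a were -0.14 (SE 0.124) and -0.35 (SE 0.420).

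Of 17 other phosphodiesterase genes, 2 averaged at least 1 FPKM. Pde6d, which encodes a carrier of prenylated proteins that is also a rod phosphodiesterase subunit, averaged 6.15 FPKM, and Pde1b, a calcium and calmodulin-dependent enzyme for both nucleotides, 5.01 FPKM. Pde1b thus stood between Pde4b and Pde8a. It was 29.0 ± 2.53 CPM in unstimulated untreated, 32.3 ± 2.04 in unstimulated PGE2-treated, 24.8 ± 3.17 in stimulated untreated and 27.4 ± 1.62 CPM in stimulated PGE2-treated cells (SD, n = 4). PGE2 gave log2 fold changes of 0.17 (adjusted p = 0.15) and 0.15 (adjusted p = 0.37) in unstimulated and stimulated cells. Stimulation lowered it with PGE2 (-0.22, SE 0.0812, adjusted p = 0.032), and without PGE2 the value was -0.25 (SE 0.105, adjusted p = 0.052).

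Among the 9 other genes for enzymes of cAMP or of both nucleotides, Pde1b included, 3 were tested under PGE2 and 1 was changed in unstimulated cells. This was Pde4c, the remaining PDE4 gene, which fell by 1.01 (SE 0.232, adjusted p = 0.0071) from 3.21 ± 0.614 to 1.56 ± 0.427 CPM, a direction opposite to that of Pde4b and Pde4d. In stimulated cells its log2 fold change was -0.29 (SE 0.215, adjusted p = 0.39), and it rose with stimulation under PGE2 (1.06, SE 0.243, adjusted p = 0.0029). Pde1a passed the filter in that comparison alone, through the stimulated PGE2-treated group, and its levels of 0.556 ± 0.332 CPM there and 0.248 ± 0.0407 CPM in unstimulated PGE2-treated cells are given as a description. Pde11a fell with stimulation without PGE2 (-0.86, SE 0.194, adjusted p = 0.0017). Of the 8 genes for cGMP enzymes and their subunits, Pde5a and Pde6d rose with PGE2 in unstimulated cells by 0.51 (SE 0.153) and 0.25 (SE 0.0752), at adjusted p of 0.027 and 0.028, and both fell with stimulation. Pde5a fell by 1.23 (SE 0.218) and Pde6d fell by 0.50 (SE 0.104) without PGE2. Pde6g, a rod subunit, rose with stimulation under PGE2 (0.75, SE 0.284, adjusted p = 0.037).

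The remaining genes of the cAMP pathway were taken from a list of 64, ordered by role. In stimulated cells 53 were tested and PGE2 raised 5 and lowered 3, or 9.43% and 5.66%. In unstimulated cells 54 were tested, with 9 higher and 10 lower, or 16.7% and 18.5%. Of 6 Gs-coupled receptors tested, 2 were changed in stimulated cells, both receptors of PGE2. Ptger4 (EP4) fell by 0.90 (SE 0.146, adjusted p = 0.0046) and Ptger2 (EP2) fell by 0.90 (SE 0.132, adjusted p = 0.0029). In unstimulated cells 2 receptors rose and 1 fell. Ptger4 fell by 0.57 (SE 0.0661), Adora2a, an adenosine receptor gene, rose by 0.48 (SE 0.0670, adjusted p = 0.00034) and Ptger2 rose by 0.34 (SE 0.103, adjusted p = 0.027). The interaction for Ptger2 was -1.23 (SE 0.169, adjusted p = 0.0034).

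Among 6 G protein genes Gnal, an alpha subunit that activates adenylyl cyclase, rose in both comparisons, by 0.40 (SE 0.0845) in unstimulated and 0.63 (SE 0.168) in stimulated cells. In unstimulated cells 1 of 6 adenylyl cyclases was changed, Adcy6, which fell by 0.36 (SE 0.0903, adjusted p = 0.012). Of 7 PKA genes tested there, the regulatory subunits Prkar2a and Prkar2b fell by 0.55 (SE 0.0716) and by 0.49 (SE 0.131), and 1 gene rose. Rapgef3, which encodes EPAC1, rose from 1.82 ± 0.295 to 5.09 ± 1.45 CPM in unstimulated cells (SD, n = 4, adjusted p = 0.00061) and by 1.64 on the log2 scale (SE 0.299) in stimulated cells, from 0.359 ± 0.117 to 1.12 ± 0.242 CPM. Crem, the CREB family member that cAMP itself induces, rose by 1.67 (SE 0.148) and 1.45 (SE 0.135), from 73.7 ± 18.1 to 231 ± 12.8 CPM and from 81.9 ± 16.4 to 223 ± 18.3 CPM. Creb1 fell by 0.24 (SE 0.0724, adjusted p = 0.028) in unstimulated cells.

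Of 16 anchors and partners of phosphodiesterases tested, 2 rose and 3 fell in unstimulated cells. Akap1, which anchors PKA at mitochondria, fell by 1.44 (SE 0.117, adjusted p = 1.1e-05) and Arrb1, a beta-arrestin, rose by 0.74 (SE 0.122, adjusted p = 0.00093). In stimulated cells Akap13 rose by 0.40 (SE 0.0616) and Arrb2, the other beta-arrestin, fell by 0.33 (SE 0.0773). Among genes for cAMP export and AMP breakdown, Nt5e rose by 0.77 (SE 0.0600) in unstimulated and 1.30 (SE 0.206) in stimulated cells. It encodes CD73, an ectoenzyme that makes adenosine from AMP outside the cell. The cAMP exporter Abcc4 fell by 0.83 (SE 0.0974) in unstimulated cells.

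**Figure D4:**
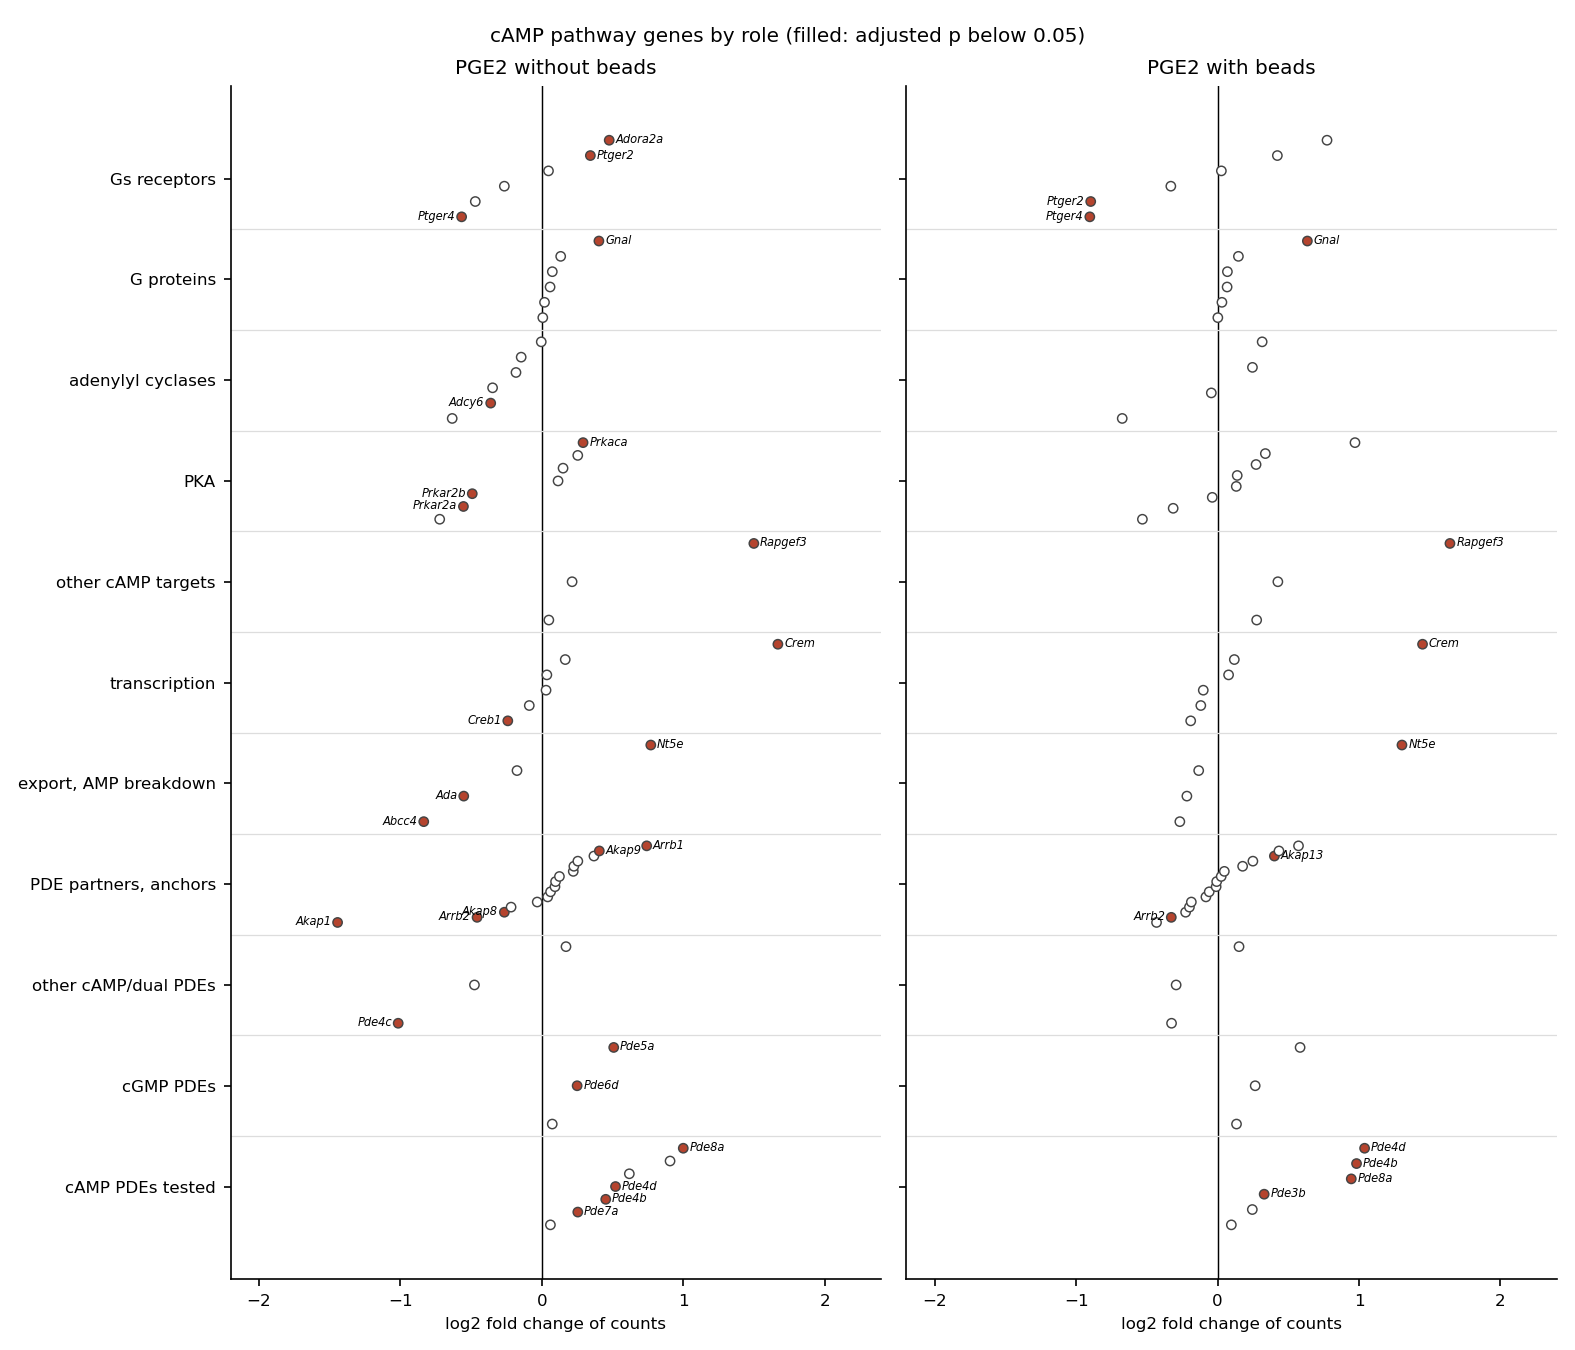
Log2 fold change under PGE2 without beads (left) and with beads (right) for the tested genes of the pathway and phosphodiesterase lists, in rows by role, with the phosphodiesterases described here in the bottom row. Filled points, which are named, have an adjusted p below 0.05. The filled points of the bottom row lie right of 0, whereas Pde4c lies at -1.01, and Akap1 at -1.44 and Crem at 1.67 are the outermost points of the left panel.

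Across the 16 samples the log2 CPM of Pde4b and Pde4d had a Pearson r of 0.98 and those of Pde3b and Pde7a 0.97. Pde4a had an r of -0.097 to 0.19 with the other 6. The genes most like each one, among 12253 genes averaging 1 CPM or more, were Tcf7 (r = 0.998), Tspyl1 and AI467606 for Pde3b, Vps37b (0.992), Gimap6 and Klrd1 for Pde4b, Vps37b (0.993), Ifngr1 and Sesn3 for Pde4d, and Foxo4 (0.992), Tmc8 and Pea15a for Pde7a. For Pde8a they were Lyst (0.969), Phlpp1 and Patj, and for Pde4a Ppp1r3g (0.928), Sccpdh and Obsl1. The closest to Pde2a was Rnf5 (0.871), then H3f3a and Zfp467, with few counts behind its own values. These values describe 16 libraries of 4 groups and are raised by any difference between the groups that the genes share.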

How the data were processed

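Poly(A)-selected RNA was sequenced in 16 samples, 4 in each of 4 groups. Per the labels and the study's methods, libraries were made with the NEBNext Ultra kit and sequenced in paired-end mode. The submitters' processing notes name HISAT2 2.0.5, featureCounts 1.5.0-p3, DESeq2 1.20.0 and the GRCm38 (mm10) build. The annotation release and the use of strand are not given in the sources used here. The deposited counts are whole numbers of reads per gene without normalization. The FPKM deposited by the authors equal the count over gene length and total count, times a factor of 0.878 to 1.11 per sample. Totals were 22678254 to 42950763 counts per sample. Between replicates, chi-square over its degrees of freedom was 8.46 to 56.8, so none was a duplicate library.

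Counts were tested over all genes with edgeR 4.0.16 in R 4.3.3 by its 2-sided quasi-likelihood test, after TMM scaling and a filter by filterByExpr (minimum count of 10), with Benjamini-Hochberg adjustment over every gene tested. Pairwise fits held 8 samples and no covariate, and the interaction all 16. A gene is called changed at an adjusted p below 0.05 and a DEG at a fold change of at least 2 as well, which are the study's thresholds. Standard errors are the log2 fold change over the root of F. For log2 CPM the prior count was 2. The script was tested on simulated data. Groups share replicate numbers: deviations of same-numbered samples from the group means correlated at 0.137 to 0.444 for PGE2 in unstimulated, 0.190 to 0.423 for PGE2 in stimulated and 0.112 to 0.359 for stimulation without PGE2. There the numbers pair the samples by the data, with 1 exception, since the labels do not say what a number shares. Stimulated untreated replicate 2 correlated at 0.190 with PGE2-treated replicate 2 and best with PGE2-treated replicate 1. For stimulation with PGE2 2 of 4 pairs were below 0.1. Alternatives were DESeq2 1.42.0, RLE and upper-quartile factors, no filter, limma-trend (limma 3.58.1) on FPKM, with a pseudocount of 1 or 0.1 over genes averaging 1 FPKM or more, or of 1 over all genes. Other alternatives were the replicate block, fitting the 16 samples at once, and dropping each replicate in turn.

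The 7 genes and the lists were chosen with earlier results of these data known. Other phosphodiesterase genes are named at a mean of at least 1 FPKM or where changed, and pathway genes as the 2 largest changes per role and PGE2 comparison, with Ptger2 in unstimulated cells and its interaction added after their values were seen. The 3 genes most like each phosphodiesterase were taken by Pearson r. Promoter windows were RefSeq's, and exon overlaps GENCODE M21's, on the build of the files. Figures were drawn with matplotlib 3.10.9. Protein sequences were not used here. Results that need 2 genes of the marker and pathway lists are not reported here, and these genes are in none of the counts.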

Additional observations from a re-analysis of the deposited data

Results flagged for a closer look

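Among 28 sets of 4 samples (7 genes in 4 groups), 1 held a sample far from the others: stimulated PGE2-treated replicate 1 had 0.235 CPM of Pde2a, on 7 counts, beside 0.0418 to 0.0594 CPM on 1 to 2 counts in the other 3. By chance about 1 in 20 such sets is expected to hold one. Pde2a did not pass the filter on low counts in the 8-sample fits that hold this group.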

How the results depend on the processing

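No call of these genes changed direction under any alternative. All values for stimulation without PGE2 kept their call (100 of 100), as did 99 of 100 with PGE2, 93 of 100 for PGE2 in stimulated cells, 106 of 115 for PGE2 in unstimulated cells and 160 of 163 for the interaction. The values lost were those of Pde3b and Pde7a given above, Pde3b also in the fit of all 16 samples (adjusted p = 0.056) and under log2(FPKM + 1) without a filter (0.068), Pde7a also in the fit of all 16 samples (0.059) and the 3 FPKM fits (0.073 to 0.16), and, with PGE2 under log2(FPKM + 1) without a filter, Pde8a for stimulation (adjusted p = 0.063). In unstimulated cells Pde3b, which was not called, ran from -0.041 to 0.14 with PGE2.

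DEGs were the least stable count. For PGE2 in stimulated cells there was 1, against 2 with upper-quartile factors and 0 with log2(FPKM + 1), filtered or not, and 0 to 2 when single replicates were left out. For PGE2 in unstimulated cells there was 1, against 0 with each FPKM alternative, with the replicate block and in the fit of all 16 samples, and 0 to 1 without single replicates. For stimulation with PGE2 there was 1, against 2 with DESeq2, upper-quartile factors, no filter and all 16 samples, and 1 to 2 without single replicates. The added DEG was Pde4d with upper-quartile factors. With DESeq2, no filter and all 16 samples it was Pde2a, on few counts. A pseudocount shrinks folds of low genes by construction. For the interaction 0 genes were changed, against 1 (Pde4b) with DESeq2 and 1 with the replicate block (adjusted p = 0.032), and 0 to 1 without single replicates. There the numbers do not pair all groups, and the block took the count over all genes from 113 to 408. Over all genes DESeq2 called 234 changed. Apart from the calls given above the block changed no other. In 22 of 24 cases a sample correlated best with its own number. With upper-quartile factors the median log2 fold change of all genes was -0.13 for stimulation, both without and with PGE2, where TMM gave -0.031 and 0.0022.

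Without single replicates the number of changed genes was 3 to 4 for either PGE2 comparison and 5 to 6 for stimulation with PGE2, where the added gene was Pde2a. Pde2a (0 to 19 counts) and Pde4a (33 to 168) had the fewest counts and, for PGE2 in unstimulated cells, the largest standard errors of the 7 genes (0.466 and 0.278). The standard error of Pde4a was 0.143 with the replicate block.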
